A study of Mus musculus with 18 samples.

Results

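The 10 genes *Mael*, *Piwil2*, *Piwil4*, *Asz1*, *Mov10l1*, *Tdrd1*, *Tdrd5*, *Tdrd9*, *Tdrd12* and *Ddx4* encode proteins of the PIWI-interacting RNA (piRNA) pathway. They were taken as a list of gene names, with no threshold on any measured value, but with earlier results of these data known. They were followed among 35773 genes with read counts in 18 samples of 6 kinds of mouse pluripotent stem cells. The study asked how a blastocyst-derived cell type, the advanced pluripotent stem cell (ASC), compares with naive and primed pluripotent cells. There were 3 samples in each group, and the labels give strain 129S2/SvPasCrl and a wild type genotype for every sample, whereas the study's methods describe the blastocysts used for derivation as coming from crosses of mixed background with reporter transgenes.

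ESC are naive embryonic stem cells kept in 2iL, a medium with a pair of kinase inhibitors and leukemia inhibitory factor (LIF). AFSC are primed cells grown from blastocysts in Activin A and FGF2. ASC were derived from AFSC with a GFP reporter (the study used GOF-GFP and Stella-GFP lines, and the labels name neither) by culture in ABCL medium, which holds Activin A, BMP4, the GSK3 inhibitor CHIR99021 and LIF, and GFP-positive colonies were picked on the way. ESC-ASC are cells converted from ESC in 2iL by the same ABCL medium. The study used the ESC lines SQ3.3 and E14 for this. The labels name neither, the alignments behind the ESC-ASC counts are named mSQ in the file headers, and whether the ESC samples are of the same line is not given, so line and medium cannot be told apart in that comparison. EpiLC are epiblast-like cells and EpiSC are epiblast stem cells, and the labels give no medium for either. The study calls the 3 samples of a group biological replicates, but the labels do not say whether they came from separate lines or cultures, so the p-values here measure only the spread between these samples.

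piRNAs are short RNAs that guide PIWI proteins to the transcripts of transposable elements. In the fetal male germ line their precursors are selected and processed in granules beside the mitochondria, where the slicer PIWIL2 makes piRNAs that load PIWIL4, which then directs DNA methylation to transposon promoters in the nucleus. Most of the genes involved are silent in somatic cells, their promoters are rich in CpG dinucleotides and are methylated there, and their loss in mice causes transposon activation and male sterility.

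A view of the DNA around these genes precedes their values. RefSeq promoter windows (assembly GRCm38.p6) matched 9 of the 10 genes, with none listed for *Piwil2*. Where a gene had several windows, the one whose start site lay nearest the 5′ end of the gene as counted was used. Of each window the 250 bases before the start site were searched on both strands for 2 short words. CACGTG is the E-box read by MAX and MGA, and TCCCGC, or GCGGGA on the other strand, is the core read by E2F proteins. MAX, MGA and E2F6 are subunits of PRC1.6, a Polycomb complex known to hold germline genes silent in embryonic stem cells. The words do not overlap. CACGTG occurred in 5 of the 9 windows (*Mael*, *Mov10l1*, *Tdrd1*, *Ddx4* and, at 2 positions, *Tdrd9*), beside 6.02% of all 32851 windows. TCCCGC or its complement occurred in 3 (*Mael*, *Ddx4* and *Tdrd5*), beside 16.9% of all windows, and *Mael* and *Ddx4* held both, beside 1.45%. The number of CpG dinucleotides in the 250 bases was 40 in *Tdrd5*, 31 in *Ddx4*, 19 in *Mov10l1*, 18 in *Mael*, 15 in *Asz1*, 11 in *Tdrd1*, 10 in *Piwil4*, 8 in *Tdrd9* and 5 in *Tdrd12*, with a median of 6 and quartiles of 2 and 16 over all windows. Both words hold a CpG, and the shares over all windows were not matched for the number of CpG. A match of letters is a description and not a binding site.

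Shown are 4 of them, each the 250 bases before the start site, 5′ to 3′ on the gene's own strand (minus in all 4), with the words above in capitals. *Mael* (chr1:166238745-166238994) and *Ddx4* (chr13:112652311-112652560) held both words and had levels that ranged widely among the 6 groups, *Tdrd5* (chr1:156303349-156303598) had the most CpG and a pattern across groups unlike the others, and *Tdrd12* (chr7:35537745-35537994) had the fewest CpG, neither word, and the highest level of the 10 genes in 4 groups. The RefSeq start site of *Tdrd5* is 316 bases inside the 5′ end of the gene as counted. Its window therefore lies within the counted gene.
*Mael*: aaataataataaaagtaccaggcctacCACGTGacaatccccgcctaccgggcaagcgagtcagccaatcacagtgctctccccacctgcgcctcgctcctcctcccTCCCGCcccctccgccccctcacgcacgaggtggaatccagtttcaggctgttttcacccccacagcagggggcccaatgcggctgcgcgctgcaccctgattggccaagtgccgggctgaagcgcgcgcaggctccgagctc
*Ddx4*: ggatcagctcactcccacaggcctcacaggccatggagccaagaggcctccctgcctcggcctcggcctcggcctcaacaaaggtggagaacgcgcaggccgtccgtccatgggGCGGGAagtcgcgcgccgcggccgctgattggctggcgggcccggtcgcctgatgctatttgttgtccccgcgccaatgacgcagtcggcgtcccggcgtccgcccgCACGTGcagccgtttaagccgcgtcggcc
*Tdrd5*: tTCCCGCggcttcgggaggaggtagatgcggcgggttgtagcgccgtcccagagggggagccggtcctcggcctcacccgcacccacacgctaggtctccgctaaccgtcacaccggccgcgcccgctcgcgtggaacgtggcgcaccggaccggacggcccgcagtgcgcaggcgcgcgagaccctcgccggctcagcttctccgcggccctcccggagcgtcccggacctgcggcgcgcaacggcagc
*Tdrd12*: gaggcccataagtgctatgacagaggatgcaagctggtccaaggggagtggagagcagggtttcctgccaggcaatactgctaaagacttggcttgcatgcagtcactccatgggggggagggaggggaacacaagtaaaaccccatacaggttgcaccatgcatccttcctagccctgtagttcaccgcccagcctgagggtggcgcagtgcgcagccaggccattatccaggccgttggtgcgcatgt

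The total of reads assigned to genes was 4961934 to 9906473 per sample in 5 groups and 17813619 to 18071600 in ESC-ASC, so depth coincided with that group. The first replicates of ESC, ASC, EpiLC and AFSC stood apart from the other 2 samples of their groups, and they also carried larger mitochondrial shares (3.48% to 14.4%, against 1.43% to 2.92% in the others of those groups). To a lesser degree replicate 2 of EpiSC and of ESC-ASC also differed from the other samples of its group. The variance with them was 11.3 and 10.1 times that of sampling in EpiSC, against 1.96 between the others. In ESC-ASC it was 6.89 and 8.04 times, against 2.46. The naive markers, and the primed markers as a sum, went with the labels. *Pou5f1*, *Sox2* and *Nanog* had reads in every sample, 6 naive markers summed to 2820 to 4880 normalised counts per kb in ESC, ASC and ESC-ASC and to 9.02 to 121 in EpiLC, AFSC and EpiSC, and 6 primed markers summed to 99.4 to 270 and to 1030 to 3160 in the same groups. Of the primed markers, *T* was lower in EpiLC (5.68 on average) than in ESC (20.8), ASC (26.9) and ESC-ASC (15.4). *Eomes* in EpiLC (12.5) was below ASC (21.6) and ESC-ASC (19.7) and above ESC (2.37). Of the 4 markers of spermatids, cells with an active piRNA pathway, *Prm2* and *Tnp1* were at 0 in every group and *Prm1* and *Acrv1* did not pass 4 reads in any sample.

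Levels below are counts divided by a size factor for depth and by the exonic length in kb, given as mean ± SD of 3 samples, so that genes can be compared. Fold changes and adjusted p-values come from edgeR's quasi-likelihood test, fitted once to the 18 samples with Benjamini-Hochberg adjustment over the 16901 genes that had at least 10 reads in at least 3 samples. Of the 10 genes, 9 passed that filter and *Piwil4* did not. A gene passes through the groups in which it is read, so the counts of genes called describe these genes and are no support for a pattern. In bulk samples a smaller number of cells with a transcript and less of it per cell cannot be told apart.

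In AFSC and EpiSC all of the 10 genes but *Tdrd5* were at or below 3.11 per kb on average. *Mael*, *Piwil2*, *Asz1*, *Mov10l1*, *Tdrd12* and *Ddx4* had more in each of the other 4 groups, *Tdrd1*, *Piwil4* and *Tdrd9* had means of at most 0.955 per kb in ESC as well as in AFSC and EpiSC, and *Tdrd5* had its highest level in AFSC. *Tdrd12* was the most abundant of them per kb in ESC, ASC, ESC-ASC and EpiLC, at 145 to 210, and *Mael* came next in the latter 3 groups. *Tdrd5* was the most abundant in AFSC and EpiSC. In AFSC, *Mael*, *Piwil4*, *Asz1* and *Mov10l1* had no read in any sample, and in EpiSC the same held for *Piwil2*, *Asz1* and *Ddx4*.

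**Figure D1:**
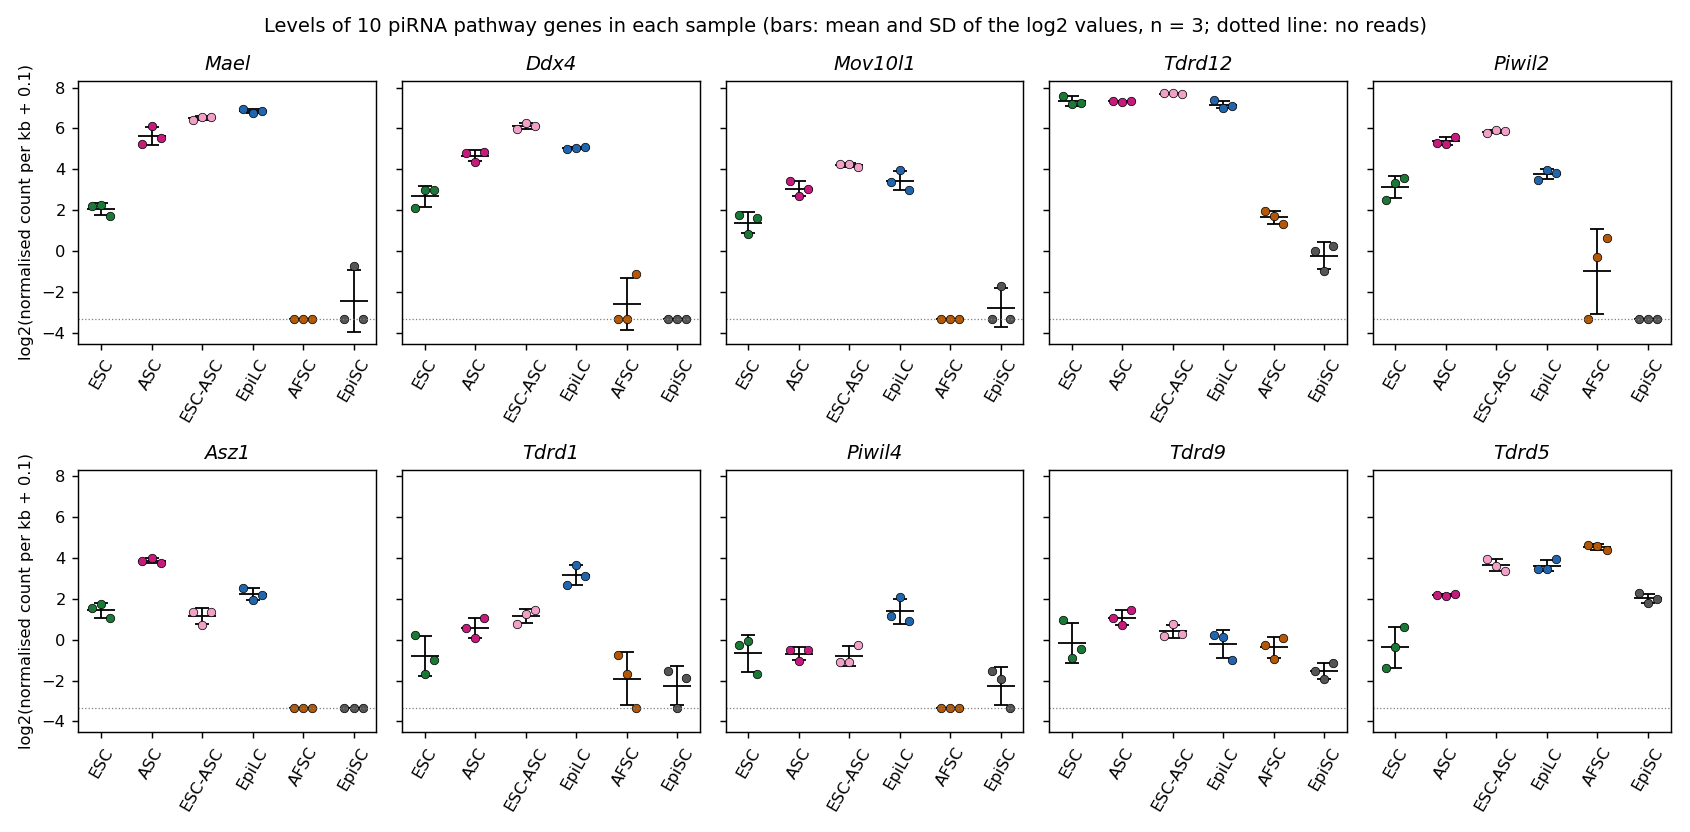
Levels of the 10 genes in each of the 18 samples, as log2 of the normalised count per kb plus 0.1, by group. Points are samples, black bars are the mean and SD of the log2 values of 3 samples, and the dotted line marks a sample with no read. *Tdrd12* was at a mean of 145 to 210 per kb in the first 4 groups, *Mael* had no read in AFSC, and *Tdrd5* alone had its highest mean in AFSC, at 23.2 per kb.

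*Mael* (chr1:166201201-166238747) encodes Maelstrom, a protein of germ cell granules needed to silence transposons. Its normalised counts per kb were 4.54, 4.70 and 3.22 in ESC, 38.0, 68.3 and 46.8 in ASC, 85.8, 93.3 and 95.4 in ESC-ASC, and 124, 108 and 114 in EpiLC. In AFSC it had no read, and in EpiSC it had 1 read in 1 sample. These groups did not overlap in any pair except AFSC with EpiSC. *Mael* was 12.1-fold higher in ASC than in ESC (log2 3.60, SE 0.31, adjusted p = 6.83e-08), 21.8-fold higher in ESC-ASC than in ESC (adjusted p = 1.27e-09) and 27.8-fold higher in EpiLC than in ESC (adjusted p = 3.22e-10). The levels of EpiLC, at 115 ± 8.21, and ESC-ASC, at 91.5 ± 5.09, were not separated by the test (log2 difference -0.35, SE 0.19, adjusted p = 0.118), whereas ESC-ASC was 1.80-fold above ASC (adjusted p = 0.00205).

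*Ddx4* (chr13:112598333-112652310), also named Vasa, encodes an RNA helicase of the germ granule in which piRNAs are amplified. The normalised counts per kb were 4.15, 7.76 and 7.83 in ESC, 27.6, 20.8 and 28.5 in ASC, 63.0, 76.8 and 69.2 in ESC-ASC, and 31.6, 32.6 and 34.2 in EpiLC. There was 1 read in 1 AFSC sample and none in EpiSC. The order was thus ESC-ASC, EpiLC, ASC, ESC and then the primed cells, and EpiLC and ASC were the only neighbours above ESC that the test did not separate (adjusted p = 0.121). *Ddx4* was 3.65-fold higher in ASC than in ESC (log2 1.87, SE 0.25, adjusted p = 1.4e-05) and 9.99-fold higher in ESC-ASC than in ESC (adjusted p = 4.2e-09). Against AFSC, with its single read, the ratio of ASC was 187 with a 95% counting interval of 33.2 to 7430.

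*Mov10l1* (chr15:88982909-89055152) encodes the helicase that picks out piRNA precursors at the start of the pathway. Its level was 2.63 per kb in ESC (7, 6 and 11 reads), 8.39 in ASC (41, 26 and 31 reads), 18.4 in ESC-ASC (156, 165 and 142 reads) and 11.2 in EpiLC (37, 73 and 31 reads). No AFSC sample and 1 EpiSC sample, with 1 read, held any. All 4 expressing groups were read at a low level, and ASC overlapped EpiLC. *Mov10l1* was 3.21-fold higher in ASC than in ESC (log2 1.68, SE 0.36, adjusted p = 0.00108), 4.40-fold higher in EpiLC than in ESC (adjusted p = 5.61e-05), and 2.20-fold higher in ESC-ASC than in ASC (adjusted p = 0.00188).

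*Tdrd12* (chr7:35469098-35537745) encodes a Tudor-domain protein with a helicase domain that is needed for the second, PIWIL4-bound set of piRNAs. It had 431, 545 and 583 reads in ESC, 658, 663 and 633 in ASC, 1825, 1877 and 1768 in the more deeply sequenced ESC-ASC, and 626, 635 and 557 in EpiLC. AFSC had 12, 12 and 10 reads and EpiSC had 3, 2 and 5. Unlike *Mael* it was not separated between naive ESC, at 164 per kb, and ASC, at 161 (log2 difference -0.04, SE 0.14, adjusted p = 0.92). Its level was 52.7-fold lower in AFSC than in ESC (log2 -5.72, SE 0.20, adjusted p = 2.7e-14) and 202-fold lower in EpiSC than in ESC (log2 -7.66, SE 0.23, adjusted p = 5.28e-15). The rise from AFSC to ASC was 51.2-fold (adjusted p = 3.34e-14). ESC-ASC was 1.27-fold above ESC (adjusted p = 0.0318), a call that was lost without ESC replicate 2 (adjusted p = 0.134), without ESC replicate 3 (0.123), and without ESC-ASC replicate 1 (0.0668) or 2 (0.0531).

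*Piwil2* (chr14:70372480-70429094) encodes MILI, the PIWI protein that cuts transcripts and starts the cycle of piRNA amplification. Normalised counts per kb were 5.61, 9.95 and 11.6 in ESC, 38.7, 37.8 and 48.2 in ASC, 54.1, 60.2 and 57.9 in ESC-ASC, and 11.1, 15.5 and 13.9 in EpiLC. AFSC had 0, 3 and 7 reads and EpiSC none. The ABCL cells were thus the high groups, with EpiLC overlapping ESC. *Piwil2* was 4.36-fold higher in ASC than in ESC (log2 2.12, SE 0.28, adjusted p = 8.7e-06) and 6.06-fold higher in ESC-ASC than in ESC (adjusted p = 3.69e-07). EpiLC and ESC were not separated (log2 difference 0.54, SE 0.29, adjusted p = 0.126), and ASC was 3.0-fold above EpiLC (adjusted p = 5.72e-05). AFSC was 11.6-fold below ESC (log2 -3.53, SE 0.45, adjusted p = 2.91e-06).

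*Piwil4* (chr9:14696230-14740733) encodes MIWI2, the nuclear PIWI protein that takes piRNAs to the transposons to be methylated. It had 2, 4 and 1 reads in ESC, 3, 2 and 3 in ASC, 4, 4 and 8 in ESC-ASC, 10, 25 and 9 in EpiLC, none in AFSC and 1, 1 and 0 in EpiSC. EpiLC was the highest group, at 2.68 ± 1.25 per kb, and did not overlap any other. With 3 samples against 3 the smallest two-sided p of an exact permutation test is 0.1, and EpiLC against ESC reached it (p = 0.1). The edgeR fit without the filter on low counts put EpiLC above ESC (log2 2.18, SE 0.60, adjusted p = 0.00352), while ASC and ESC, at 0.533 and 0.601 per kb, were not separated there (log2 difference -0.11, SE 0.79). The gene shares 137 exonic bases, 2.54% of its length, with the antisense gene *Gm10706*, which had 1, 7 and 1 reads in EpiLC, and the counting used no strand.

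*Asz1* (chr6:18050964-18109061) encodes GASZ, a scaffold on the outer mitochondrial membrane that holds the piRNA machinery there. It had 4, 8 and 5 reads in ESC, 38, 43 and 35 in ASC, 14, 9 and 14 in ESC-ASC, 14, 12 and 12 in EpiLC, and none in any AFSC or EpiSC sample. ASC stood above every other group without overlap, at 14.6 ± 1.11 per kb against 4.67 in EpiLC, the next. *Asz1* was 5.34-fold higher in ASC than in ESC (log2 2.42, SE 0.33, adjusted p = 2.5e-05) and at least 35.5-fold higher than in AFSC, where the bound takes a floor of 3 reads over the group. ESC-ASC was 6.58-fold below ASC (log2 -2.72, SE 0.28, adjusted p = 1.78e-06) and was not separated from ESC (log2 difference -0.30, SE 0.38, adjusted p = 0.548). Of the 9 tested genes it was the only one called lower in ESC-ASC than in ASC.

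The Tudor-domain proteins bind methylated arginines of PIWI proteins and assemble them into granules. *Tdrd1* (chr19:56826209-56870012), a partner of PIWIL2, had 3, 1 and 2 reads in ESC, 7, 5 and 10 in ASC, 17, 26 and 28 in ESC-ASC, 30, 78 and 44 in EpiLC, 2, 1 and 0 in AFSC, and 1, 0 and 1 in EpiSC. EpiLC, at 9.23 per kb, was clear of all other groups. *Tdrd1* was 18.2-fold higher in EpiLC than in ESC (log2 4.19, SE 0.52, adjusted p = 1.13e-06) and 6.49-fold higher in EpiLC than in ASC (log2 of ASC minus EpiLC -2.70, SE 0.40, adjusted p = 1.38e-05). ASC and ESC, at 1.45 and 0.570 per kb, were not separated (log2 difference 1.49, SE 0.68, adjusted p = 0.0736), and the difference was called when ESC replicate 1 was left out (adjusted p = 0.0394).

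*Tdrd9* (chr12:111971559-112068854), which encodes a helicase that works with PIWIL4, was low in every group, with 5, 2 and 3 reads in ESC, 10, 8 and 13 in ASC, 11, 18 and 12 in ESC-ASC, 5, 6 and 2 in EpiLC, 3, 2 and 5 in AFSC, and 1, 1 and 2 in EpiSC. ASC had the highest mean, 2.05 per kb, and overlapped both ESC and ESC-ASC. No 2 neighbours in the order of the 6 groups were separated by the test, though more distant ones were: *Tdrd9* was called higher in ASC than in ESC (2.38-fold, adjusted p = 0.0422), AFSC (2.75-fold, adjusted p = 0.0143), EpiLC (2.42-fold, adjusted p = 0.0241) and EpiSC (7.53-fold, adjusted p = 0.000237). The first 3 of these calls were lost under DESeq2 (adjusted p = 0.129, 0.0518 and 0.0789) and when ASC replicate 3 was left out (adjusted p = 0.135, 0.0596 and 0.0955).

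*Tdrd5* (chr1:156255296-156303664), needed for transposon silencing and for spermatid development, followed another order. Its normalised counts per kb were 0.284, 0.671 and 1.45 in ESC, 4.51, 4.34 and 4.59 in ASC, 15.2, 12.3 and 10.2 in ESC-ASC, 10.8, 11.1 and 15.1 in EpiLC, 24.8, 24.0 and 20.8 in AFSC, and 4.73, 3.43 and 3.85 in EpiSC. AFSC was the highest group, with no overlap with any other, and ESC the lowest. *Tdrd5* was 25.9-fold higher in AFSC than in ESC (log2 4.69, SE 0.31, adjusted p = 1.5e-10) and 5.25-fold lower in ASC than in AFSC (log2 -2.39, SE 0.23, adjusted p = 5.18e-08). Over the 18 samples its log2 level had r = -0.08 with the mean of the other members, against 0.64 to 0.97 for the other 9, a description of samples that share their groups. Of its 6937 exonic bases, 3178 (45.8%) belong only to a transcript with a retained intron, and it shares 176 bases (2.54%) with the antisense gene *4930518J20Rik* (9 to 13 reads per sample in ESC-ASC and at most 3 elsewhere), so its level per kb depends on which transcript is made, which counts per gene cannot tell.

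The comparison of ASC with naive ESC addresses how far these cells differ from the naive state. In it 7 of the 9 tested genes were called higher and none lower, with 26.4% of all tested genes called higher and 23.9% lower. The 7 were *Mael*, *Piwil2*, *Asz1*, *Mov10l1*, *Tdrd5*, *Tdrd9* and *Ddx4*, by 2.38-fold to 12.1-fold. The median log2 fold change was 1.87 over the 9 genes and 0.02 over all genes tested. EpiLC had 5 of the 9 higher than ESC (*Mael*, *Mov10l1*, *Tdrd1*, *Tdrd5* and *Ddx4*) and none lower, with 28.7% of all tested genes higher and 26.6% lower. Both comparisons share the ESC samples. Without the 4 libraries that stood apart, 8 of the 9 genes were higher in ASC than in ESC and the same number as before, 5, in EpiLC.

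**Figure D2:**
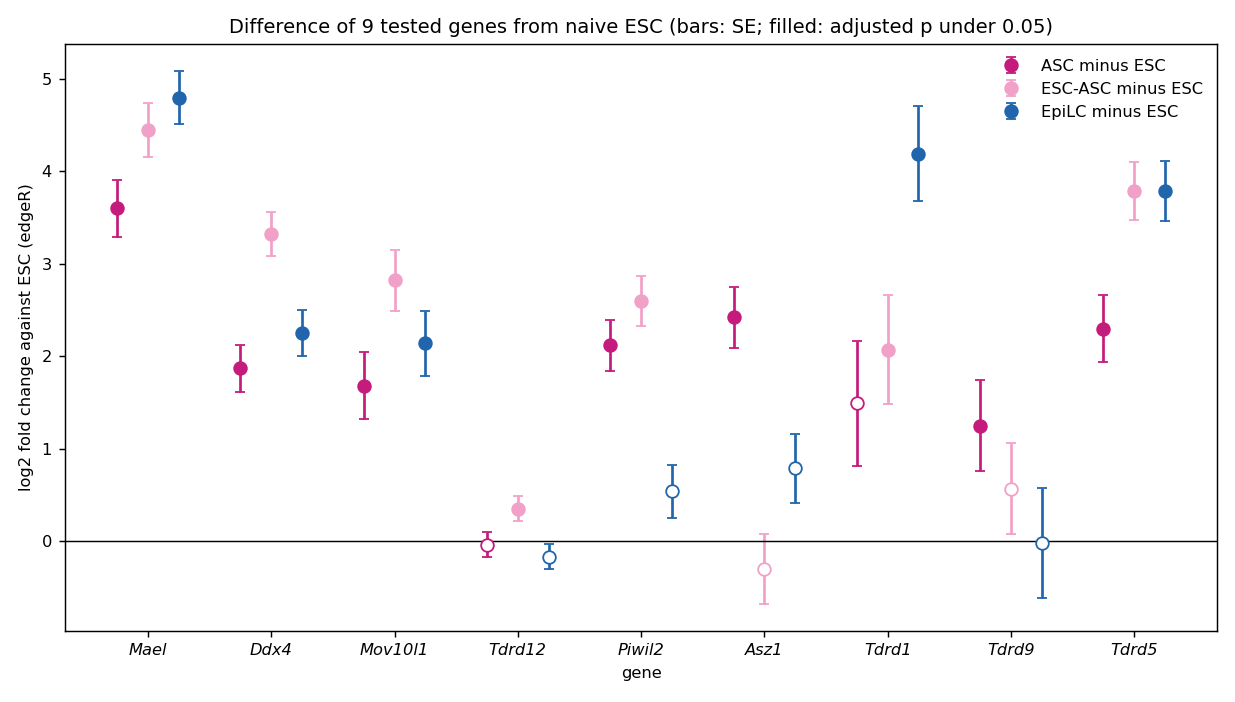
Log2 fold change of the 9 tested genes in ASC, ESC-ASC and EpiLC against the same ESC samples (edgeR). Bars are SE, filled points have an adjusted p under 0.05. *Mael* differed from ESC by 3.60 to 4.80 in the 3 groups, *Asz1* by 2.42 in ASC and -0.30 in ESC-ASC, and *Tdrd1* by 4.19 in EpiLC.

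ASC and EpiLC were also compared directly. There 3 genes were higher in ASC (*Asz1*, *Piwil2* and *Tdrd9*, with 31.4% of all tested genes higher) and 3 were lower (*Mael*, *Tdrd1* and *Tdrd5*, with 28.4% lower). For *Mael* the level in ASC was 2.30-fold below that in EpiLC (adjusted p = 8.05e-05), and for *Asz1* it was 3.09-fold above (adjusted p = 0.000169). *Tdrd12*, *Mov10l1* and *Ddx4* were not separated, with log2 differences of 0.13 (SE 0.14), -0.46 (SE 0.28) and -0.38 (SE 0.21). Without the 4 libraries that stood apart *Tdrd12* was also called, which made 4 higher in ASC.

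In the primed cells the sets called were the same in both. Against ESC, *Mael*, *Piwil2*, *Asz1*, *Mov10l1*, *Tdrd12* and *Ddx4* were lower in AFSC (6 of 9, with 30.8% of all tested genes lower) and also in EpiSC (6 of 9, with 32% lower). *Tdrd5* was higher in AFSC (29.7% of all tested genes) and in EpiSC (29.2%), where it was 4.39-fold above ESC (adjusted p = 4.39e-05). Since *Mael*, *Asz1* and *Mov10l1* had no read in AFSC, their falls are bounds from a floor of 3 reads over the group, at least 6.06-fold, 6.44-fold and 9.09-fold. These bounds take the ESC level as measured, without its counting error. The low reads in ESC itself (4 to 11 per sample) set how large a bound can be. In EpiSC the falls of *Piwil2*, *Asz1* and *Ddx4* were at least 46.4-fold, 7.37-fold and 19.5-fold. With zero groups at their bounds, the median log2 fold change of the 9 genes was -2.69 in AFSC and -4.0 in EpiSC, beside -0.03 and -0.04 over all genes tested. Fits of each of these pairs of groups alone called 2 genes lower, *Piwil2* and *Tdrd12*, because *Mael*, *Asz1*, *Mov10l1* and *Ddx4* then had too few reads to be tested. Between the primed cells, AFSC had more *Tdrd5* (5.90-fold, adjusted p = 7.2e-08), more *Tdrd12* (3.84-fold, adjusted p = 0.000303) and more *Piwil2* (10 reads in all against none, at least 3.82-fold, adjusted p = 0.00796) than EpiSC, 3 of 9 genes with 21.6% of all tested genes higher.

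The comparison of ASC with AFSC sets these cells against those they were derived from. In ASC 8 of the 9 tested genes were higher than in AFSC (32.8% of all tested genes) and *Tdrd5* was lower (31.2%). The rise was at least 76.2-fold for *Mael*, 35.5-fold for *Asz1* and 30.0-fold for *Mov10l1*, each from no read, 51.2-fold for *Tdrd12* and 50.5-fold for *Piwil2* (log2 5.66, SE 0.39, adjusted p = 1.8e-09). *Tdrd1*, with 3 reads in all in AFSC, had a ratio of 6.73 with a 95% counting interval of 2.02 to 35.1. With zero groups at their bounds the median log2 change was 5.15, against 0.02 over all genes tested. ASC also stood above EpiSC for 8 of the 9 genes (35.9% of all tested genes higher, 30.7% lower, none of the 9), and *Tdrd5* was the exception, at 4.48 and 4.0 per kb (log2 difference 0.17, SE 0.27, adjusted p = 0.591).

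Culture of ESC in the same medium gave ESC-ASC, in which 7 of the 9 genes were higher than in ESC and none lower, with 30.6% of all tested genes higher and 29.6% lower. *Asz1* and *Tdrd9* were not called (log2 -0.30, SE 0.38, and 0.57, SE 0.49). *Mael*, *Tdrd5* and *Ddx4* had the largest log2 changes, 4.45, 3.79 and 3.32. Set against ASC, ESC-ASC had higher *Mael*, *Mov10l1*, *Tdrd5*, *Tdrd12* and *Ddx4* (5 of 9, with 23% of all tested genes higher) and lower *Asz1* (27.7% lower). *Ddx4* differed by 2.73-fold (adjusted p = 1.56e-05) and *Tdrd5* by 2.81-fold (adjusted p = 3.29e-05) in that direction, and *Tdrd12* by only 1.31-fold (adjusted p = 0.0208), a call lost without ASC replicate 2 (0.0563), ASC replicate 3 (0.0535) or ESC-ASC replicate 2 (0.0593). Without the 4 libraries that stood apart *Piwil2* joined the 5 (log2 0.40, adjusted p = 0.0138). The depth of the ESC-ASC libraries and their group cannot be told apart.

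Set against the primed cells, ESC-ASC and EpiLC gave counts of called genes near those of ASC. ESC-ASC was higher than AFSC in 7 of the 9 genes (35.3% of all tested genes) and lower in *Tdrd5* (33.7%), with *Tdrd9* not called, and it was higher than EpiSC in all 9 tested (38.2% higher, 34% lower). EpiLC was higher than AFSC in the same 7 (24.4%) and lower in *Tdrd5* (22.6%), and higher than EpiSC in 8 (27% higher, 21.5% lower), where *Tdrd9* missed the threshold (adjusted p = 0.0559). Between ESC-ASC and EpiLC, *Piwil2*, *Mov10l1*, *Tdrd12* and *Ddx4* were higher in ESC-ASC (4 of 9, with 31.9% of all tested genes) and *Asz1* and *Tdrd1* were lower (2 of 9, with 32.2%). The largest of these differences were a 4.17-fold higher *Piwil2* (adjusted p = 2.34e-06) and a 4.33-fold lower *Tdrd1* (adjusted p = 2.57e-05).

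The 2 changes in ABCL were compared in the same fit, as the change from AFSC to ASC less the change from ESC to ESC-ASC. This difference was above 0 for 6 of the 9 genes (30.8% of all tested genes) and below 0 for *Tdrd5* (27.7%). For *Tdrd12* the change was 5.68 from AFSC and 0.35 from ESC, a difference of 5.33 (SE 0.24, adjusted p = 1.39e-12), and the ABCL cells ended at 161 and 210 per kb. For *Asz1* it was 8.48 from AFSC, where the fit starts from no read and its size depends on the prior count, and -0.30 from ESC. *Tdrd5* fell by 2.39 on the log2 scale from AFSC and rose by 3.79 from ESC, a difference of -6.19 (SE 0.39, adjusted p = 1.16e-10). *Tdrd1* and *Tdrd9* did not pass the test of the difference (0.53, SE 1.04, adjusted p = 0.684, and 0.89, SE 0.72, adjusted p = 0.305). The same contrast is the gap of ASC to ESC-ASC less the gap of AFSC to ESC. It therefore cannot tell a different action of ABCL from different starting levels. Whether the ESC samples are of the line that gave ESC-ASC is not given.

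**Figure D3:**
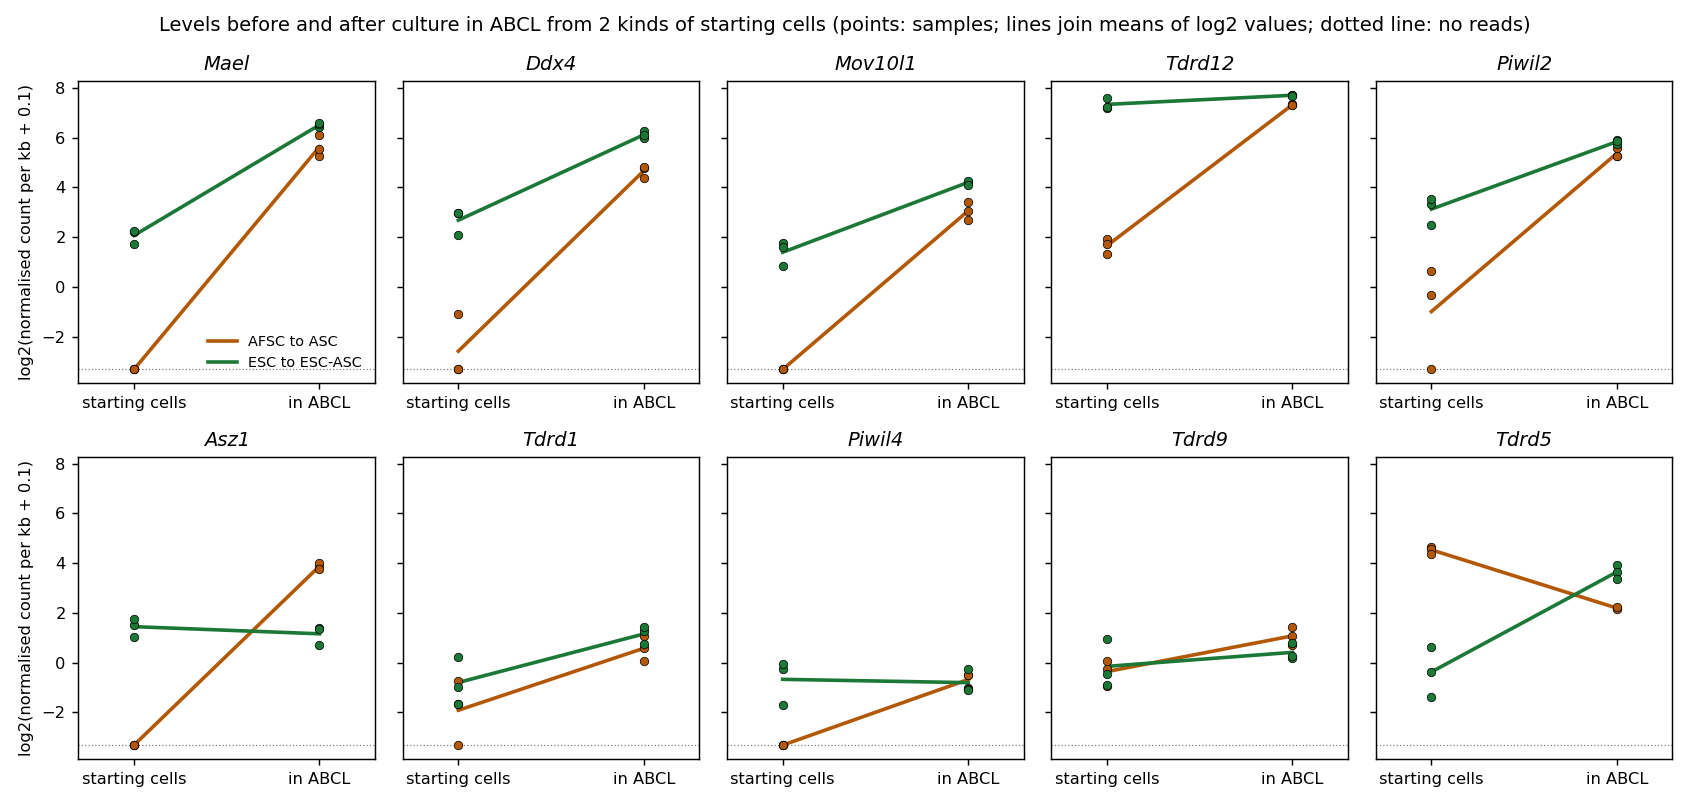
Levels of the 10 genes in starting cells and in ABCL cells, as log2 of the normalised count per kb plus 0.1. Brown runs from AFSC to ASC and green from ESC to ESC-ASC. The groups are separate samples, and whether the ESC samples are of the line that gave ESC-ASC is not given. Points are samples, lines join the means of 3 log2 values and the dotted line marks no read. The *Tdrd12* lines start at means of 3.11 and 164 per kb and end at 161 and 210, and the *Tdrd5* lines cross, from 23.2 to 4.48 and from 0.801 to 12.6.

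Other genes of the pathway, came from a list of 18 of which 15 passed the filter. In ASC 7 of the 15 were higher than in ESC and 3 lower (26.4% and 23.9% of all tested genes). In EpiLC 3 were higher and 4 lower, near the shares of all tested genes (28.7% and 26.6%). In AFSC and in EpiSC 11 of the 15 were lower than in ESC (30.8% and 32% of all tested genes). *Rnf17*, which encodes a Tudor protein of germ cells, was at 128 ± 5.61 per kb in ESC, 184 ± 25.1 in ASC, 272 ± 2.10 in ESC-ASC, 139 ± 4.17 in EpiLC, 0.702 in AFSC and 0.573 in EpiSC. *Fkbp6*, a co-chaperone of piRNA loading, had its highest mean in ESC (295 ± 3.47) and no read in AFSC or EpiSC. *Morc1*, which acts in transposon silencing in male germ cells, was highest in ESC (459 ± 89.6) and lowest in AFSC (0.260). *Tdrkh*, which encodes a Tudor protein of the mitochondrial membrane needed for piRNA trimming, ran the other way, from 0.401 in ESC to 12.3 ± 0.905 in AFSC and 32.0 ± 2.84 in EpiSC, and *Tdrd7* rose with it in both primed groups (14.7 ± 0.659 and 22.9 ± 2.17, against 2.77 in ESC). *Spocd1*, which links MIWI2 to DNA methylation, did not pass 3 reads in any sample.

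Of 9 other germline genes known to be sensitive to promoter methylation, each tested, 5 were higher in ASC than in ESC and 1, *Dazl*, was lower (26.4% and 23.9% of all tested genes), and 8 were lower than ESC in AFSC and in EpiSC (30.8% and 32%). *Taf7l*, a testis TFIID subunit, had 3.41 ± 0.698 per kb in ESC, 35.1 ± 0.783 in ASC, 21.5 ± 2.08 in ESC-ASC and 90.9 ± 3.75 in EpiLC, the order that *Mael* had except for ASC and ESC-ASC. It was also among the 5 genes outside the members whose log2 level was most like their mean over the 18 samples, with *4930447C04Rik* (r = 0.98), *Taf7l* (0.97), *Rbm44* (0.97), *Aire* (0.97) and *Tshz3* (0.97).

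**Figure D4:**
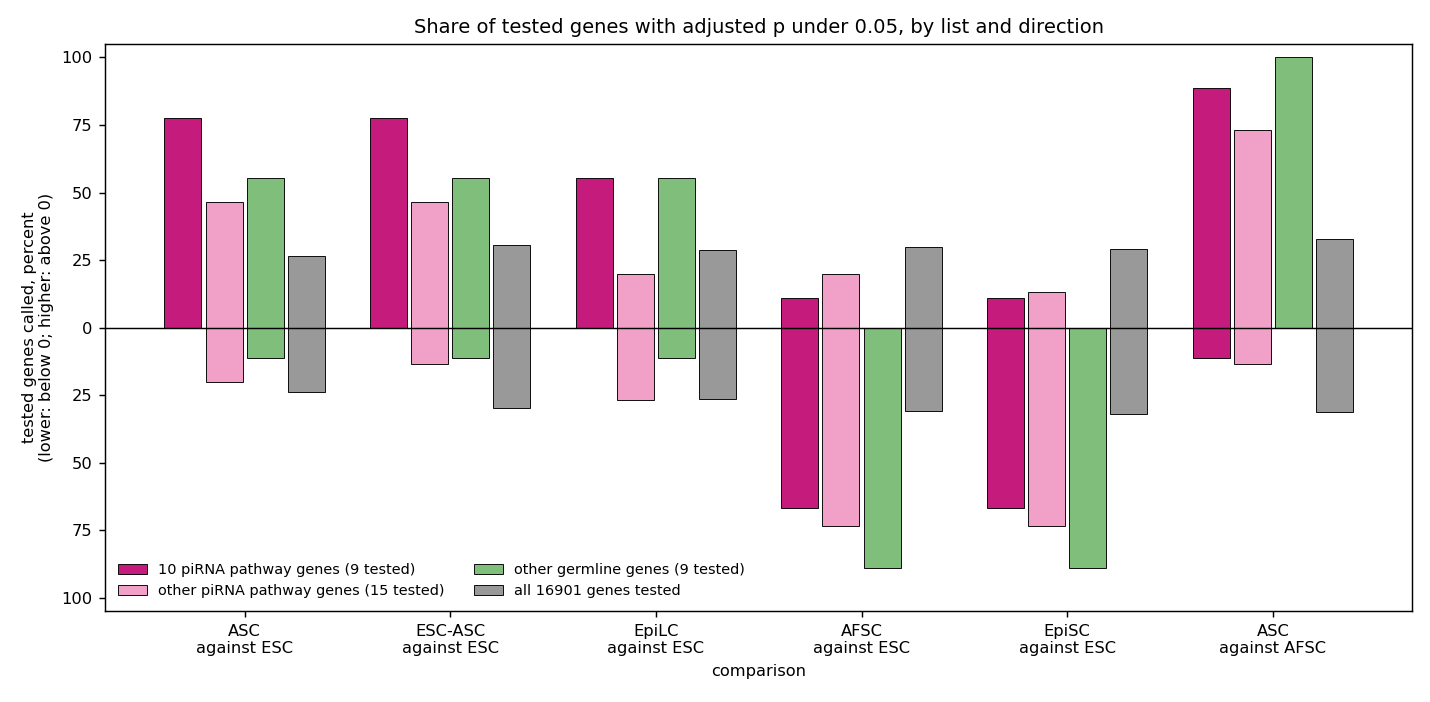
Percent of tested genes called higher (above 0) or lower (below 0) at an adjusted p under 0.05, for the 10 piRNA pathway genes (9 tested), the other piRNA pathway genes (15 tested), the other germline genes (9 tested) and all 16901 genes tested, in 6 comparisons. The first 5 comparisons share the ESC samples. In AFSC and EpiSC, 6 of the 9 were lower than in ESC, where 30.8% and 32% of all genes were.

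Regulators from 3 further lists were read beside these genes. *Dnmt3l*, the cofactor of the de novo DNA methyltransferases, was at 151 ± 41.8 per kb in ESC, 822 ± 193 in ASC, 1040 ± 25.7 in ESC-ASC, 409 ± 22.8 in EpiLC, 2.49 ± 0.196 in AFSC and 0.245 in EpiSC. *Tet1* and *Tet2*, which oxidise methylated cytosine, were lower than ESC in AFSC and EpiSC, whereas *Tet3* of the same family was higher in both. *Tet2* was at 77.7 ± 23.6 in ASC and at 3.48 and 2.37 in the primed cells. Of the 8 DNA methylation enzymes and cofactors listed, 5 were lower than ESC in AFSC and in EpiSC (30.8% and 32% of all tested genes). The other 3, *Tet3*, *Dnmt3a* and *Dnmt3b*, were higher in both (29.7% and 29.2%). In ASC 5 of the 8 were higher than in ESC and none lower (26.4% and 23.9%). *Dnmt3b* was 176 ± 16.7 in ESC, 151 ± 16.2 in ASC and 1020 to 2660 on average in EpiLC, AFSC and EpiSC. Of the 10 PRC1.6 subunits 3 were higher and 3 lower in ASC than in ESC, near the shares of all tested genes (26.4% and 23.9%). In AFSC 6 were lower than in ESC and 3 higher (30.8% and 29.7% of all tested genes), and in EpiSC 2 were lower and 4 higher (32% and 29.2%). *Mga* was lower in both (log2 -1.01 and -0.94) and *Max* in AFSC (log2 -0.77), whereas *E2f6* was higher in both, at 166 ± 34.2 and 246 ± 35.0 against 47.3 ± 14.1 in ESC. Of 4 genes of H3K9 methylation *Ehmt1* was higher and *Trim28* lower in ASC than in ESC (26.4% and 23.9% of all tested genes). In AFSC *Setdb1*, *Trim28* and *Ehmt2* were lower than in ESC and *Ehmt1* was higher (30.8% and 29.7% of all tested genes). In EpiSC *Trim28* was lower and *Ehmt1* higher (32% and 29.2%). The part of any of these in the levels of the 10 genes was not tested.

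Markers of other cell states were read in the same samples. Staining in the study found cells in a 2-cell-like state in a small share of ASCs and more rarely in ESCs in 2iL. The summed level of 6 markers of that state was 2690 to 3350 normalised counts per kb in ASC, 191 to 281 in ESC-ASC and 149 to 239 in EpiLC. It was 23.7 to 34.9 in ESC and at most 6.74 in AFSC and EpiSC. The sum was thus higher in ASC than in ESC-ASC, while *Mael*, *Mov10l1*, *Tdrd5*, *Tdrd12* and *Ddx4* were lower in ASC than in ESC-ASC and *Asz1* was higher. Like the sum, the means of all of the 10 genes but *Tdrd5* were lowest in AFSC and EpiSC. The 5 markers of primordial germ cell specification summed to 2090 to 4020 in ESC, 412 to 562 in ASC, 429 to 552 in ESC-ASC, 190 to 301 in EpiLC and at most 65.2 in AFSC and EpiSC. In ESC most of the sum was *Dppa3*, at 2440 per kb on average there, 252 in ASC and 275 in ESC-ASC, and *Dnd1* ran otherwise, from 22.6 in ESC to 48.5 in ESC-ASC and 60.6 in EpiLC. Markers of feeder fibroblasts summed to 17.3 to 116 over all samples. The sum was highest in ASC through *Col1a1* (56.4 on average) and *Thy1* (34.7), while *Col3a1* was highest in ESC (11.2, against 0.586 in ASC), *Col1a2* and *Twist2* in AFSC (7.63 and 5.35) and *Thy1* in ESC-ASC (53.4). Markers of extraembryonic endoderm summed to 64.9 to 65.5 in EpiSC and to 9.23 to 22.8 elsewhere, and those of trophoblast, which include the primed gene *Eomes*, to 463 to 518 in EpiSC and to 16.1 to 202 elsewhere. *Eomes* made up most of the former (472 on average), while *Cdx2* was at 94.9 in ESC, 51.1 in ASC and 0.368 in ESC-ASC, and *Gata3* at 5.03, 13.6 and 0.169. The part of these cell states in the levels of the 10 genes was not tested.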

How the data were processed

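Poly(A)-selected RNA of 18 samples was sequenced. The authors mapped paired reads to GRCm38/mm10 with TopHat2, guided by Ensembl release 86, and deposited raw read counts per gene. Per the file headers, featureCounts 1.5.0-p1 counted fragments without strand, multi-mapping reads and reads overlapping several genes included, with an overlap of at least 10 bp. Near-identical copies and antisense overlaps can therefore add reads to a gene. The library kit was directional.

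Samples were grouped by their labels, although the deposited tables of AFSC samples carry ASC in their names and those of ASC samples ABCL; naive markers were high in the samples labelled ASC and low in those labelled AFSC. Counts as deposited were tested with edgeR 4.0.16 (R 4.3.3; TMM scaling, robust quasi-likelihood fit, 1 mean per group, 18 samples in 1 fit, a minimum of 10 counts in 3 or more samples per gene, Benjamini-Hochberg within each comparison, call at adjusted p under 0.05). SE is the log2 fold change divided by the root of F. Levels used DESeq2 1.42.0 size factors and exonic length, with a pseudocount of 0.1 on the log2 scale in plots and correlations. A group with no read was set to 3 counts over the group for a bound, which leaves out the counting error of the other group. Ratios against 1 to 3 counts carry exact 95% intervals that cover counting error only. Depth was 4961934 to 18071600 counts per sample. Alternatives were DESeq2's test and size factors, other filters, a replicate block, 2-group fits, thinning of ESC-ASC to a total of 7785262, a fold limit, and single libraries left out; the fit without 4 libraries was chosen after seeing the data. The fits were tested on simulated data.

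Named are the 10 genes in every comparison, genes from the context lists, the 5 genes most like the members by Pearson r over 18 samples, and genes that overlap a member's exons. The genes and lists were chosen with earlier results of these data known. Within the groups no 2 samples were alike within sampling noise, but some pairs were near it. The variance between samples was 1.65 times that of sampling for ESC replicates 2 and 3. It was 1.96 times for EpiSC replicates 1 and 3, and 100 times for AFSC replicates 1 and 2.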

Additional observations from a re-analysis of the deposited data

Results flagged for a closer look

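For 7 of the 9 tested genes the change from AFSC to ASC differed from the change from ESC to ESC-ASC by edgeR's test of the difference itself, with Benjamini-Hochberg adjustment over all genes tested. The adjusted p was 1.39e-12 for *Tdrd12*, 1.16e-10 for *Tdrd5*, 7.99e-07 for *Asz1*, 9.23e-05 for *Piwil2*, 0.000229 for *Ddx4*, 0.000919 for *Mael* and 0.00128 for *Mov10l1*. *Tdrd5* moved in opposite directions, and *Asz1* rose in the first change and was not called in the second. *Mael*, *Asz1* and *Mov10l1* had no read in AFSC and *Ddx4* had 1, so the fitted size of these 4 differences depends on the prior count. Of all tested genes, 30.8% had a difference called above 0 and 27.7% below. The same 7 genes were called between AFSC and ESC, with the opposite sign (for *Tdrd12*, log2 -5.72). The gap between these starting cells enters the difference in full with its sign reversed. The test therefore cannot tell a different action of ABCL from different starting levels. Whether the ESC samples are of the line that gave ESC-ASC is not given, so line and medium cannot be told apart either.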

How the results depend on the processing

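Alternatives were run for 9 of the 15 comparisons of groups and for the difference of the ABCL changes, and not for ESC-ASC against EpiLC, AFSC or EpiSC, EpiLC against AFSC or EpiSC, or AFSC against EpiSC. Among those run, no called result reversed. Counts of the 9 genes called moved by over 1.5 times in 3 cases. Fits of the pair of groups alone called 2 lower in AFSC than in ESC and 2 lower in EpiSC than in ESC, in place of 6 each, since fewer genes passed the filter, and 3 of the 5 calls of ESC-ASC above ASC had a log2 fold change beyond 1. With single libraries left out, the counts higher were 6 to 8 for ASC against ESC, 7 to 8 for ASC against AFSC, 2 to 3 for ASC against EpiLC, 6 to 7 for ESC-ASC against ESC and 4 to 5 for ESC-ASC against ASC, and the count lower was 6 to 7 for EpiSC against ESC. The other counts stayed at 8 higher for ASC against EpiSC, 5 higher for EpiLC against ESC, 6 lower for AFSC against ESC, 3 lower for ASC against EpiLC, and 6 above and 1 below 0 for the difference of the ABCL changes. Of the values of single genes under these alternatives, 1190 kept their side of the threshold, 20 lost a call and 7 gained one, all with *Tdrd9*, *Tdrd12*, *Tdrd1* or *Piwil2*.

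Deviations from the group means correlated by a mean of 0.081 (-0.206 to 0.46) over 45 pairs of samples with the same replicate number. Over 90 pairs with different numbers the mean was -0.038 (-0.387 to 0.326). Whether samples with the same number shared a batch was not tested. With the replicate block, 6 genes were higher in ASC than in ESC, as *Tdrd9* lost its call (adjusted p = 0.0541), and the block changed no other call among the comparisons run. Without a filter on low counts *Piwil4* was tested too, and 9 genes were higher in ASC than in AFSC. Thinning ESC-ASC to the depth of the others changed no count against ESC or ASC or in the difference of the ABCL changes. Depth limits *Piwil4*, *Tdrd9*, *Tdrd1* and *Asz1* most, since they had under 10 counts in most samples.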
